A study of Mus musculus with 6 samples.

Results

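The 10 genes described here encode transcription factors that act in neuron formation: the zinc finger factors St18, Myt1, Myt1l, Scrt1, Scrt2 and Insm1, the HMG-box factors Sox4, Sox9 and Sox11, and the basic helix-loop-helix factor Hes6. They were taken by symbol from a table of 40413 genes, and all 10 were found and had enough counts to be tested. RNA sequencing was done on 6 libraries of N2A-A5, a derivative of the mouse neuroblastoma line Neuro-2a that the labels call acceptor cells; the labels do not say what A5 and acceptor stand for. The 3 libraries at 96 h came from cells kept in differentiation medium with 1% fetal bovine serum and 10 µM retinoic acid, without blasticidin. The 3 libraries at 0 h came from untreated cells grown in 10% serum with 10 µg/mL blasticidin. Each group is described as biological replicates, and no other allele or agent is named. Retinoic acid, serum, blasticidin and time in culture changed together and cannot be told apart.

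Retinoic acid acts through nuclear receptors, which bind paired half-sites in DNA and change the transcription of nearby genes. In neuroblastoma lines it is widely used to slow division and bring out neuronal features. In developing mouse neurons, MYT1L represses genes of other lineages, the Scratch factors SCRT1 and SCRT2 are Snail-family repressors of newly formed neurons, and INSM1 is a repressor of neural and endocrine precursors. SOX4 and SOX11, the SOXC factors, promote neuronal genes, SOX9 maintains neural stem cells and directs glial, neural crest and cartilage fates, and HES6 opposes the Notch effector HES1.

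The line's identity was checked first. The sympathoadrenal factors Hand2 and Phox2a were expressed. In counts per 1000000 (CPM), Hand2 had 311 ± 6.63 at 96 h and 381 ± 12.6 at 0 h, and Phox2a had 56.1 ± 3.86 at 96 h and 77.6 ± 2.40 at 0 h (SD, n = 3 each), while Th was under 1 CPM in both group means. Phox2a (-0.47 ± 0.06, log2 fold change ± SE) and Dbh (-3.18 ± 0.36), an enzyme of noradrenaline synthesis, fell. Markers of macrophages, endocrine pancreas, astrocytes and chondrocytes summed to at most 3.68 CPM a list in any library. Those of Schwann cells and oligodendrocytes summed to 13.3 to 16.8 CPM at 96 h and 10.1 to 11.5 CPM at 0 h, those of fibroblasts to 10.7 to 12.7 CPM at 96 h and 4.54 to 4.96 CPM at 0 h, and pan-neuronal genes to 580 to 612 CPM at 96 h and 737 to 766 CPM at 0 h. Of the 6 pan-neuronal genes, Dcx (1.59 ± 0.36) and Stmn2 (0.26 ± 0.06, lost with library size only) rose and Tubb3 (-0.57 ± 0.04) and Elavl4 (-0.68 ± 0.06) fell, with a list median of -0.04. In the other lists Erbb3 (1.35 ± 0.26) and Pdgfra (1.62 ± 0.21) rose and the astrocyte gene Aldh1l1 (-2.50 ± 0.65) fell. The fibroblast gene Dcn (0.99 ± 0.33, edgeR adjusted p = 0.0209) passed too, but not with library size only (0.75) or without 0 h replicate 1 or 2 or 96 h replicate 1 or 3 (adjusted p = 0.0728, 0.0654, 0.0944 and 0.0779). The library totals ran between 16833692 and 19000363 counts at 96 h and between 17628885 and 20932370 at 0 h. The predicted gene Gm26917 took 28.7% to 31.7% of counts at 96 h and 18.7% to 22.7% at 0 h, and nuclear protein-coding genes took 47.2% to 50.7% at 96 h and 61.2% to 65.2% at 0 h. CPM here is scaled to library sizes corrected with TMM factors, which adjust for such differences in makeup. With library size only, the median log2 fold change of all tested genes was lower by 0.25 (a shift of -0.25), so directions are relative to the TMM scale.

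Promoter windows are shown for paralogues whose balance differed between the groups, Myt1 against Myt1l and Sox4 against Sox11. Each is 300 bases, 250 before and 50 after a RefSeq transcription start on GRCm38.p6, an earlier build than the mm39 of the counts, and is written from 5′ to 3′ on the gene's strand. Capitals mark the nuclear receptor half-site AGGTCA on either strand. For Myt1 (chr2:181763082-181763381, plus strand) and Myt1l (chr12:29528134-29528433, plus strand) the most upstream of several annotated starts is shown. Sox4 (chr13:28953650-28953949, minus strand) and Sox11 (chr12:27342669-27342968, minus strand) have 1 window each.
Myt1: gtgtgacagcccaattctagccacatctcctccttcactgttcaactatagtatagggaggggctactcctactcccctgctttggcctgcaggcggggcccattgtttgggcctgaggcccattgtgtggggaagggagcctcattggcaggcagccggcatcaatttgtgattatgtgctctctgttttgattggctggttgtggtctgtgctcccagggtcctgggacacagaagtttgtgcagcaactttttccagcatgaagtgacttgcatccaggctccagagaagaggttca
Myt1l: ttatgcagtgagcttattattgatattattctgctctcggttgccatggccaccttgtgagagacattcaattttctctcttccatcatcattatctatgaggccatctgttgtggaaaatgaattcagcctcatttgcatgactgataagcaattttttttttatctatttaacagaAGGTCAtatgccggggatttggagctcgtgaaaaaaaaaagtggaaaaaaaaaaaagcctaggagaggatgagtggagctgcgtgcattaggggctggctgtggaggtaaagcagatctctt
Sox4: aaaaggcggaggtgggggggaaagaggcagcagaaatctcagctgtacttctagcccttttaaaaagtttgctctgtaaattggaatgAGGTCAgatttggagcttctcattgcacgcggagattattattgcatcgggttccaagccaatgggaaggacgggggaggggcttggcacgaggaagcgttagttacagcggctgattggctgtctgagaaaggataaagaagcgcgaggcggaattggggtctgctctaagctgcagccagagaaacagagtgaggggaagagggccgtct
Sox11: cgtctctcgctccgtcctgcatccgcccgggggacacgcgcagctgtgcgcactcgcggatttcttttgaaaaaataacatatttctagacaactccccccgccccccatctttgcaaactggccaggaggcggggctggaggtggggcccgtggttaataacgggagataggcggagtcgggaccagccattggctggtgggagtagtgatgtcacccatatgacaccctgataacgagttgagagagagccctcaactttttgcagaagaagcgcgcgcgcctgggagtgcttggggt

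The half-site AGGTCA occurred once in these windows of Myt1l and Sox4 and in no shown window of Myt1 or Sox11. The other windows of Myt1 and Myt1l held 0 matches, and 1 of the 2 windows of Hes6 held 1. Over all 32851 windows of the table, 16.3% held at least 1 match. The letters AAGTT, the core that MYT-family zinc fingers bind, were searched on both strands too and were found in 39.3% of all windows. The shown window of Myt1 held 2 matches of AAGTT, those of Sox4 and Sox11 held 1 each and that of Myt1l held 0, while the other 2 windows of Myt1 held 1 each and, of the other 4 windows of Myt1l, 2 held 0, 1 held 1 and 1 held 2. Windows were matched for 5 of the 10 genes, 12 windows in all, and the 2 motifs overlapped in none of these. Counts per gene do not say which start was used, and a match describes the letters only.

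Between 0 h and 96 h the factors did not all move the same way, and more fell than rose. At 96 h, St18, Myt1l, Sox9, Insm1, Scrt1 and Sox11 were lower and Myt1, Scrt2 and Sox4 were higher at an adjusted p under 0.05 (edgeR quasi-likelihood test, adjusted over 13705 genes), and Hes6 did not pass. The higher call of Sox4 was small and turned to a negative log2 fold change with library size only. Of the 13705 tested genes, 57.4% passed, 28.7% as higher and 28.8% as lower (17.6% and 42.7% with library size only), so 9 of 10 factors were called against that background. The 9 called factors had libraries that did not overlap between the groups, as had 64.1% of all tested genes. The median log2 fold change was -0.44 over the 10 factors and 0.03 over all tested genes. In these bulk libraries, fewer cells that express a gene and less RNA per cell cannot be told apart.

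**Figure D1:**
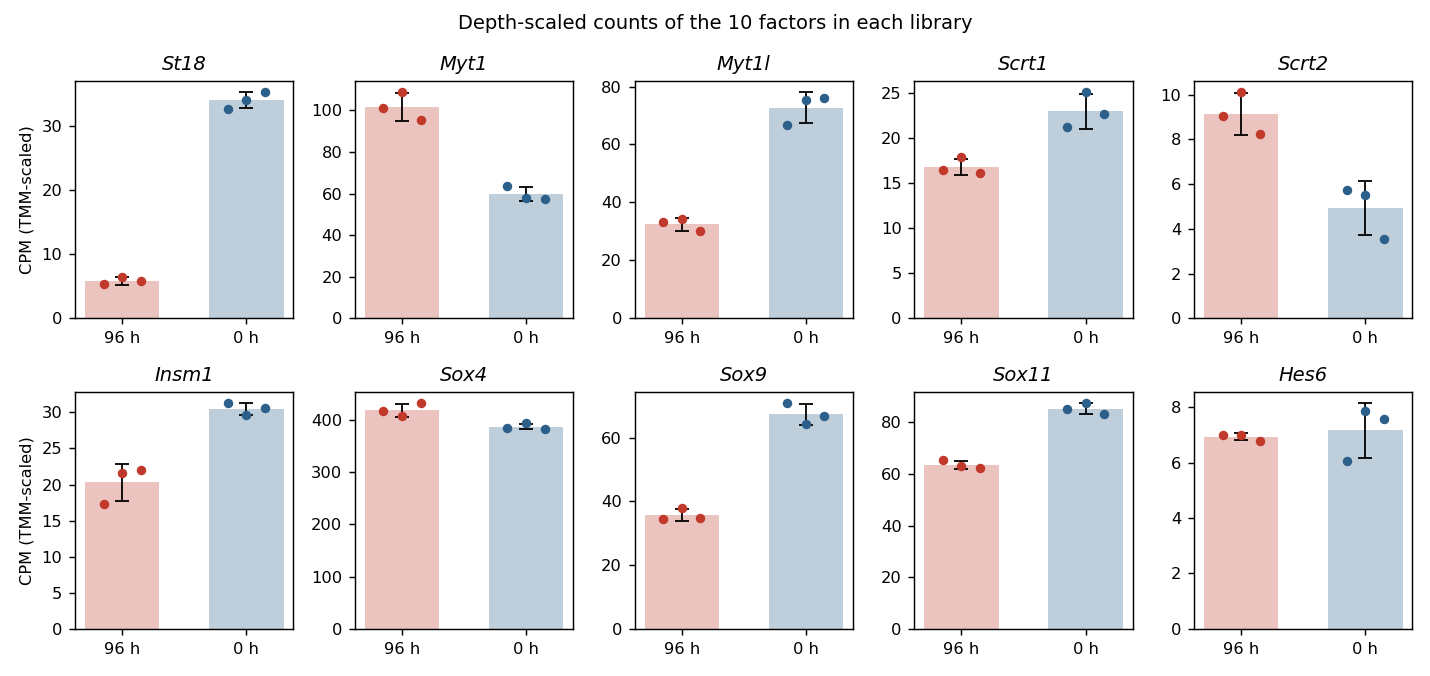
Depth-scaled counts (CPM, TMM-scaled) of the 10 factors, with 96 h left and 0 h right in each panel. Points are libraries, bars are means and error bars are SD (n = 3 each). The groups overlap for Hes6 alone, and St18 has a mean of 5.83 CPM at 96 h and 34.0 CPM at 0 h.

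The MYT family showed the widest spread of responses. St18, also called MYT3, had 5.26, 6.43 and 5.79 CPM in the 96 h libraries, against 32.7, 34.0 and 35.2 CPM in the 0 h libraries. Every 96 h library was far below every 0 h library. The log2 fold change was -2.54 ± 0.10 (SE), a level 5.81-fold lower at 96 h (edgeR adjusted p = 1.44e-10), and 46 of the 13705 tested genes, St18 included, had a log2 fold change this low or lower.

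Myt1l, a repressor of non-neuronal genes in mouse neurons, had 33.1, 34.4 and 30.0 CPM at 96 h and 66.7, 75.5 and 76.1 CPM at 0 h. The groups were far apart, with a log2 fold change of -1.16 ± 0.07 (edgeR adjusted p = 1.47e-08). Myt1, the founding member of the family, moved the other way. It had 101, 109 and 95.3 CPM at 96 h and 63.5, 58.0 and 57.6 CPM at 0 h, a rise of 0.77 ± 0.06 on the log2 scale (edgeR adjusted p = 2.09e-07). St18 and Myt1l were thus the only factors past a 2-fold fall, which 3.77% of all tested genes passed, and Myt1 rose 1.70-fold.

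The paralogue ratios, which are taken within a library and do not depend on its scaling, showed how the balance differed. Counts of Myt1 were 3.13 times those of Myt1l at 96 h and 0.821 times at 0 h (geometric means). The log2 ratio was 1.65 ± 0.03 at 96 h and -0.28 ± 0.19 at 0 h (SD, n = 3 each), and the 3 libraries of each group were apart. St18 had 0.0574 times the counts of Myt1 at 96 h and 0.569 times at 0 h, a difference of -3.31 in log2 ratio. St18 against Myt1l differed by -1.38. For all 6 ratios tested the exact two-sided permutation p was 0.1 (adjusted over the 6 ratios also 0.1), the smallest that 3 libraries against 3 allow.

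Per length, the balance within the family went to Myt1. Scaled to the longest coding transcript, Myt1 made up 77.1% ± 0.0483 of the family's summed level at 96 h and 40.6% ± 2.77 at 0 h (SD, n = 3 each). Myt1l made up 18.8% ± 0.382 at 96 h and 37.8% ± 2.30 at 0 h, and St18 4.13% ± 0.339 at 96 h and 21.6% ± 0.540 at 0 h. The summed level was 24.0 ± 1.57 CPM per kb at 96 h and 26.7 ± 0.332 at 0 h. For these 3 shares and the sum the exact permutation p was 0.1. With the mean length of the coding transcripts in place of the longest, the share of Myt1 was 73.8% at 96 h and 36.5% at 0 h.

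**Figure D2:**
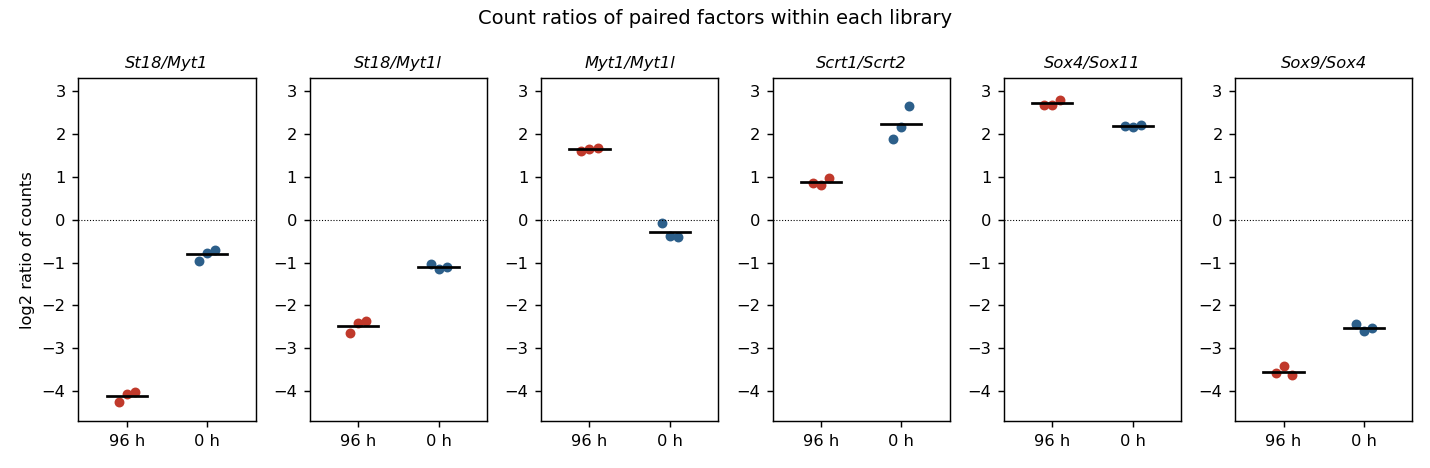
Log2 ratio of counts (0.5 added) between paired factors within each library, with 96 h left and 0 h right in each panel. Points are libraries and lines are group means. The log2 ratio of Myt1 to Myt1l is 1.65 at 96 h and -0.28 at 0 h, and the groups are apart in every panel.

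The Scratch genes also parted. Scrt1 had 16.4, 17.8 and 16.1 CPM at 96 h and 21.2, 25.0 and 22.6 CPM at 0 h, a fall of modest size without overlap (log2 fold change -0.45 ± 0.09, edgeR adjusted p = 7.46e-04). Scrt2 had 9.06, 10.1 and 8.24 CPM at 96 h and 5.73, 5.54 and 3.55 CPM at 0 h, higher in every 96 h library (log2 fold change 0.88 ± 0.20, edgeR adjusted p = 0.00160). The 0 h libraries of Scrt2 varied most among the factors, with a coefficient of variation of 24.4%, and replicate 3 was the lowest of them. Without it, the log2 fold change was 0.69. Scrt1 had 1.84 times the counts of Scrt2 at 96 h and 4.72 times at 0 h, a log2 ratio lower by 1.36 at 96 h (a difference of -1.36). The related genes Snai1, Snai2 and Snai3, repressors known from epithelial cells that become motile, had few counts and were not tested. Snai2 had sums over 3 libraries of 22 counts at 96 h (at most 15 in a library) and 5 at 0 h.

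Insm1, which recruits corepressors through a short SNAG motif, had 17.3, 21.6 and 22.0 CPM at 96 h and 31.2, 29.6 and 30.6 CPM at 0 h. Every 96 h library was below every 0 h library, and the spread among the 96 h libraries came mainly from replicate 1. The log2 fold change was -0.58 ± 0.09 (edgeR adjusted p = 1.05e-04), and -0.49 without that replicate. Its relative Insm2 was not tested, with sums over 3 libraries of 16 counts at 96 h and 8 at 0 h.

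The SOXC gene Sox4 had the highest level of the set. Sox4 had 416, 407 and 432 CPM at 96 h and 385, 393 and 383 CPM at 0 h, so the groups were close but did not overlap on the TMM scale. Its log2 fold change was 0.11 ± 0.04 (edgeR adjusted p = 0.0327), against -0.14 with library size only (adjusted p = 0.0731). The call was also lost when 0 h replicate 1, 2 or 3 or 96 h replicate 1 or 3 was left out (adjusted p = 0.113, 0.0650, 0.107, 0.103 and 0.147), so the data give Sox4 no firm direction.

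Sox11 had 65.2, 63.1 and 62.2 CPM at 96 h and 85.0, 87.4 and 83.2 CPM at 0 h, with tight libraries and no overlap. It fell by 0.42 on the log2 scale (SE 0.05, edgeR adjusted p = 1.23e-05). Sox4 had 6.58 times the counts of Sox11 at 96 h and 4.55 times at 0 h, a difference of 0.53 in log2 ratio. Per length, Sox4 made up 91.9% ± 0.337 of the summed level of both genes at 96 h and 88.7% ± 0.117 at 0 h, and that sum was 94.9 ± 2.58 CPM per kb at 96 h and 91.0 ± 1.39 at 0 h (SD, n = 3 each, exact permutation p = 0.2 for the sum).

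Sox9 had 34.5, 37.9 and 34.7 CPM at 96 h and 70.9, 64.4 and 66.8 CPM at 0 h. The 96 h libraries were all well below the 0 h libraries, with a log2 fold change of -0.91 ± 0.07 (edgeR adjusted p = 5.01e-08). Sox9 had 0.0854 times the counts of Sox4 at 96 h and 0.174 times at 0 h. Beside this fall, the summed level of 6 astrocyte markers was 0.175 to 0.779 CPM at 96 h and 1.57 to 2.53 CPM at 0 h, with Aqp4, Slc1a3 and Fabp7 at 0 in all libraries, and that of 5 chondrocyte markers was 2.40 to 3.68 CPM at 96 h and 1.53 to 2.19 CPM at 0 h, with Matn1 at 0. Comp, the 1 chondrocyte marker tested, was higher (1.02 ± 0.34, edgeR adjusted p = 0.0201), but did not pass with library size only (0.78) or without 0 h replicate 1 or 96 h replicate 2 or 3 (adjusted p = 0.0751, 0.0853 and 0.0647). Their part in the result was not tested.

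Hes6 had 6.99, 7.01 and 6.79 CPM at 96 h and 6.04, 7.88 and 7.57 CPM at 0 h. The 96 h libraries lay inside the range of the 0 h libraries, and the log2 fold change was -0.05 ± 0.16 (edgeR adjusted p = 0.812). With 347 counts at 96 h and 447 at 0 h over 3 libraries, it was the factor with the fewest counts at 0 h after Scrt2. Its SE of 0.16 was larger than the log2 fold change seen for Sox4 (0.11), so a change of that size could not be resolved.

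**Figure D3:**
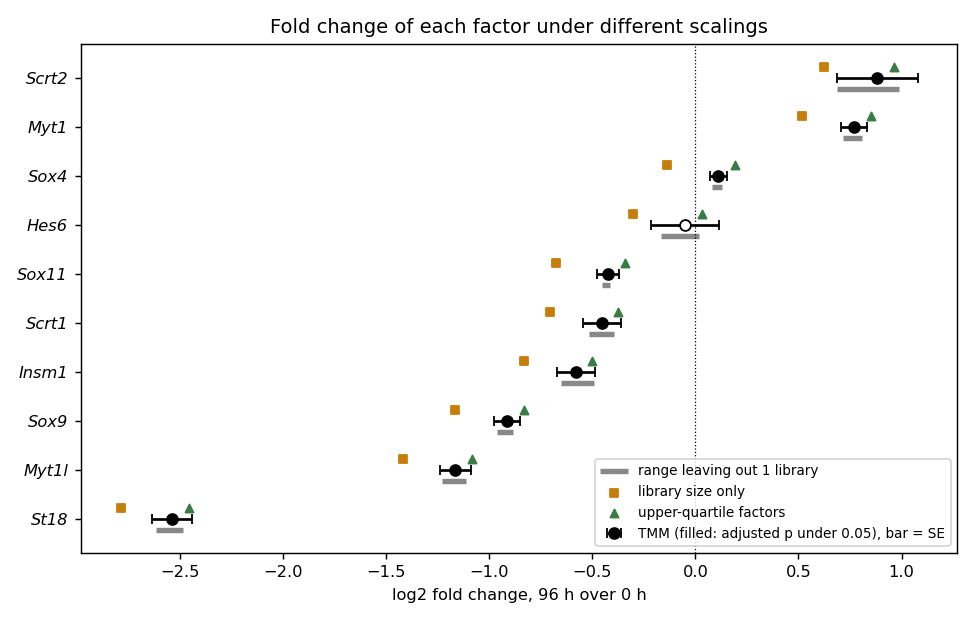
Log2 fold change (96 h over 0 h) of each factor. Circles are the TMM-scaled fit with SE bars (filled where the adjusted p is under 0.05), squares use library size only, triangles use upper-quartile factors and grey bars span the fits without 1 library. Sox4 is at 0.11 in the TMM fit and at -0.14 with library size only, and Hes6 lies on both sides of 0.

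Levels of different genes were compared per kb of the longest transcript. At 96 h, Sox4 was first with 87.2 ± 2.65 CPM per kb, followed by Myt1 (18.5 ± 1.22), Sox9 (8.64 ± 0.463), Sox11 (7.64 ± 0.183), Insm1 (6.55 ± 0.840), Hes6 (5.19 ± 0.0916), Myt1l (4.51 ± 0.311), Scrt1 (3.83 ± 0.212), Scrt2 (2.69 ± 0.276) and St18 (0.989 ± 0.0992) CPM per kb (SD, n = 3 each). The libraries of neighbours in this order did not overlap.

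At 0 h, Sox4 again came first with 80.7 ± 1.14 CPM per kb and Sox9 second with 16.3 ± 0.787. Myt1 (10.8 ± 0.603), Sox11 (10.2 ± 0.255), Myt1l (10.1 ± 0.731) and Insm1 (9.83 ± 0.267 CPM per kb) followed, and neighbours among these 4 overlapped. St18 (5.76 ± 0.214), Hes6 (5.37 ± 0.737) and Scrt1 (5.24 ± 0.446 CPM per kb) came next, where St18 overlapped with Hes6 and Hes6 with Scrt1. The libraries of St18 did not overlap with those of Insm1, nor those of Scrt1 with those of Scrt2, which was lowest at 1.46 ± 0.355 CPM per kb. The order rests on annotated lengths. With the mean length of the coding transcripts, Sox4 stayed first in both groups, but 4 factors took another place at 96 h and 8 at 0 h, where Myt1l had 17.9, Sox9 16.3 and Myt1 16.1 CPM per kb.

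**Figure D4:**
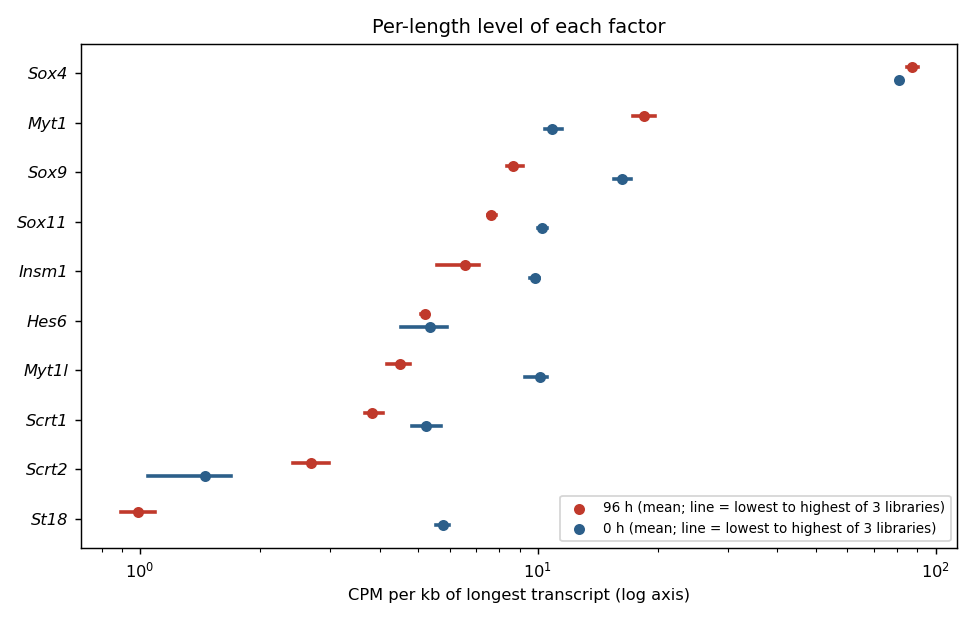
Level of each factor in CPM per kb of its longest transcript, on a log axis and ordered by the 96 h level, with 96 h above 0 h in each row. Dots are means and lines run from the lowest to the highest of 3 libraries. Sox4 has 87.2 CPM per kb at 96 h and 80.7 at 0 h, and St18 has 0.989 at 96 h and 5.76 at 0 h.

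Among the other SOX genes, 4 of 17 had enough counts to be tested. Of these, 2 fell (3 with library size only), where 28.8% of all tested genes fell (42.7% with library size only). Sox6, a SOXD factor, had a log2 fold change of -0.91 ± 0.09 (15.1 ± 1.54 CPM at 96 h and 28.5 ± 1.25 CPM at 0 h), and Sox8, like Sox9 a SOXE factor, had -0.62 ± 0.07 (22.8 ± 0.608 CPM at 96 h and 35.0 ± 1.71 CPM at 0 h). Sox12, the remaining SOXC gene, had 44.1 ± 3.93 CPM at 96 h and 49.3 ± 1.74 CPM at 0 h and did not pass (log2 fold change -0.16 ± 0.07, edgeR adjusted p = 0.0704). It passed in 3 of 15 alternatives, namely with library size only (-0.41), without the filter (-0.20) and without 96 h replicate 3 (-0.22). Sox30, at a low level (0.944 ± 0.295 CPM at 96 h and 0.369 ± 0.247 CPM at 0 h), did not pass (1.31 ± 0.55). It passed in 4 of the 14 alternatives that kept it. These were upper-quartile factors (1.39), limma-voom (1.43), coding genes alone (1.33) and the fit without 0 h replicate 2 (1.98). Summed over 3 libraries, the stem cell factor Sox2 had 0 in the 96 h and 1 in the 0 h libraries, and Sox10, a marker of neural crest glia, had 4 in the 96 h and 1 in the 0 h libraries.

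Of the HES and HEY relatives of Hes6, Hes1, whose product HES6 opposes, had a sum of 1 count in the 96 h libraries and 3 in the 0 h libraries, and Hes5 had 27 in the 96 h and 35 in the 0 h libraries. Hey1 was lower (-0.39 ± 0.16, edgeR adjusted p = 0.0462), a call that 4 of 15 alternatives kept, and that was lost without any 1 library other than 96 h replicate 2 (edgeR adjusted p of at least 0.0589). Bhlhe40, a related repressor that responds to hypoxia and many other signals, rose 4.26-fold, with 41.3 ± 1.70 CPM at 96 h and 9.68 ± 0.208 CPM at 0 h. Bhlhe41 did not pass (0.50 ± 0.21), but did in 5 of 15 alternatives, among them the fit without 0 h replicate 1 (0.64). Among 17 tested Notch pathway genes, 4 rose and 5 fell (3 and 8 with library size only, median -0.02). These counts were near the shares over all tested genes, 28.7% higher and 28.8% lower. Notch4 (2.34 ± 0.24) and Numbl (0.58 ± 0.10) were higher. Lfng (-1.63 ± 0.10), a modifier of Notch receptors, and Maml1 (-0.53 ± 0.08) were lower.

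In another list of basic helix-loop-helix genes, the tested ones, namely ID genes, E-protein genes and Atoh8, moved in 1 direction. All 8 tested members of a list of 26 proneural, E-protein and ID genes fell (8 also with library size only, median -1.16). Of all tested genes, 28.8% fell (42.7% with library size only). The ID genes, which block proneural factors, included Id2 (-1.79 ± 0.10) and Id3 (-2.56 ± 0.15, 5.59 ± 1.65 CPM at 96 h and 33.0 ± 0.659 CPM at 0 h). Atoh8, Tcf3, Tcf4, Tcf12, Id1 and Id4 were the others. The proneural gene Neurog2 had few counts, with sums of 23 in the 96 h and 26 in the 0 h libraries.

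Of 19 other neurogenic factors tested, 9 were lower and 4 higher (10 and 3 with library size only, median -0.16). The shares over all tested genes were 28.8% lower and 28.7% higher (42.7% and 17.6% with library size only). Zeb1 (0.56 ± 0.07) rose and its paralogue Zeb2 (-0.64 ± 0.06) fell. Gata2 fell, with 70.1 ± 3.35 CPM at 96 h and 240 ± 12.1 CPM at 0 h, and Lhx2, with sums of 76 counts in the 96 h libraries and 15 in the 0 h libraries, rose at a low level.

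A list of corepressors and other repressors tied to the SNAG and MYT factors had 11 lower and 6 higher of 22 tested (12 and 2 with library size only, median -0.12). Over all tested genes, 28.8% were lower and 28.7% higher (42.7% and 17.6% with library size only). Rcor2, a neural partner of the demethylase KDM1A, had a log2 fold change of -0.96 ± 0.08 and Hdac1, a histone deacetylase, had -0.75 ± 0.06. Gfi1, itself a SNAG-domain repressor, rose at a low level (2.71 ± 0.44), with sums of 103 counts in the 96 h libraries and 19 in the 0 h libraries. Tle4, a Groucho corepressor, had 0.35 ± 0.06, a call lost with library size only (0.10). Sin3b, which MYT1L can bind, did not pass (0.08 ± 0.11), and turned to -0.17 on the library-size scale.

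Genes tied to the SOX factors were also read. Of 14 tested neuronal genes linked to SOX4 and SOX11, 8 fell and 2 rose (11 and 1 with library size only, median -0.49). Among all tested genes, 28.8% fell and 28.7% rose (42.7% and 17.6% with library size only). Ncam1 (-1.16 ± 0.04) and Cd24a (-0.84 ± 0.05), both neuronal surface proteins, fell, Dcx (1.59 ± 0.36) rose at a low level, and Stmn2 had 0.26 ± 0.06, which did not pass with library size only (0.01). Of 11 tested genes linked to SOX9, 7 fell and 3 rose (7 and 1 with library size only, median -0.62), against the same shares over all tested genes. Apcdd1, a Wnt inhibitor, fell (-2.28 ± 0.12), as did Nfib (-0.75 ± 0.05), while the collagen gene Col11a2 (2.43 ± 0.28) and Nfia (0.86 ± 0.25, lost with library size only at 0.60) rose. The cartilage gene Col2a1, a well-known SOX9 target, had sums of 26 counts in the 96 h libraries and 25 in the 0 h libraries.

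A list of endocrine genes that goes with INSM1 and ST18 was read as well. Of 17 tested members, 9 rose and 2 fell (8 and 6 with library size only, median 0.38). Of all tested genes, 28.7% rose and 28.8% fell (17.6% and 42.7% with library size only). A link to the fall of Insm1 and St18 was not tested. Scg2 (1.36 ± 0.06) and Scg5 (1.17 ± 0.07) rose, and Chga (-0.76 ± 0.07) and Isl1 (-0.37 ± 0.08) fell. Markers of pancreatic endocrine cells summed to at most 0.175 CPM in any library.

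**Figure D5:**
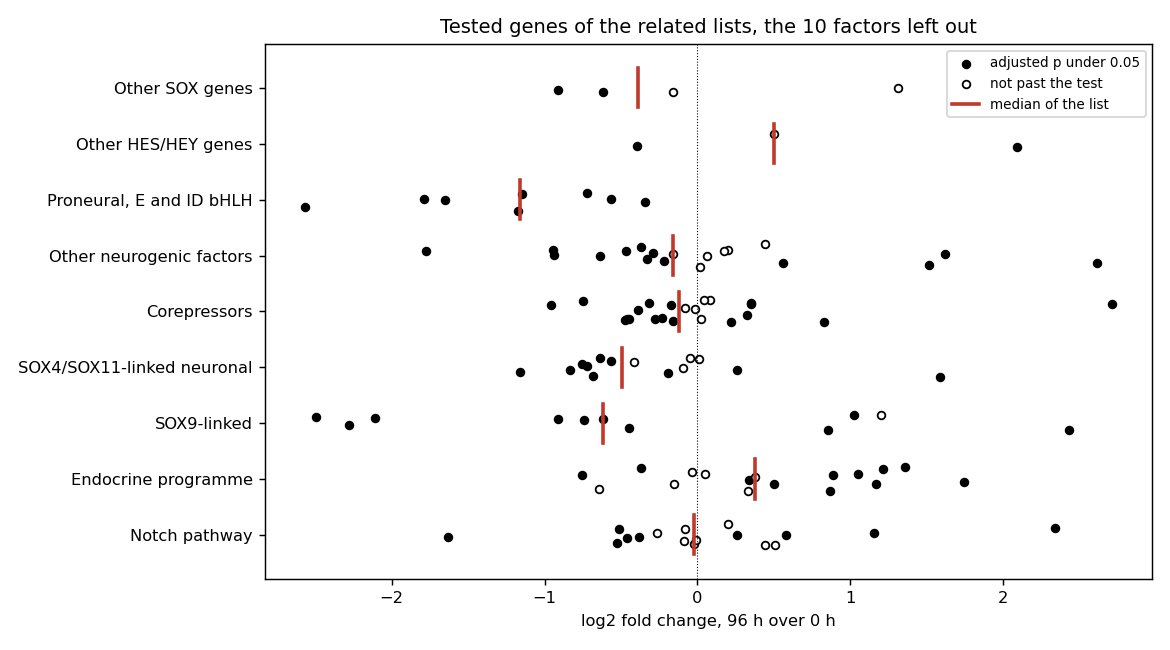
Log2 fold changes (96 h over 0 h, TMM scale) of the tested genes of 9 related lists, with the 10 factors left out. Dots are genes, filled where the adjusted p is under 0.05, and red lines are list medians. All 8 tested proneural, E-protein and ID genes lie below 0, while the endocrine list has a median of 0.38.

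The genes whose profiles over the 6 libraries lay nearest to a factor were found by the Euclidean distance between log2 CPM centred on each gene's mean, among 9413 genes. With 2 groups, this mostly matches the size of the fold change. Nearest to St18 were Anxa2, an annexin (distance 0.0816, log2 fold change -2.57 ± 0.08), and Pdzd2 (0.195). Nearest to Myt1 were Tfcp2 (0.0769) and Glis2 (0.0829), both transcription factors. Nearest to Myt1l were Donson (0.113), a replication fork protein, and Xxylt1 (0.127). Sox11 had Cdc37 (0.0391) and Golga2 (0.0452) nearest, and Insm1 had Chaf1b (0.102) and Phf5a (0.104).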

How the data were processed

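RNA was measured in 3 libraries at 96 h and 3 at 0 h. Ribosomal RNA was removed and libraries were made, per the labels' protocols, with a stranded Takara SMARTer Pico kit; both ends were read on an instrument from Singular Genomics. The submitters' processing notes name mm39 and the tools Salmon (1.10.1), FastQC (0.12.1) and DESeq2 (1.52.0); no source used here states their settings or the annotation. The authors deposited an estimated count per gene symbol and library, unnormalised. Estimation can split reads between related or overlapping genes; the annotated genes antisense to Myt1l had at most 10 counts in a group, and a noncoding gene antisense to Sox4 was not analysed here.

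Counts were rounded, filtered with filterByExpr (13705 of 40413 genes kept), scaled with TMM and tested with edgeR 4.0.16 (R 4.3.3), with Benjamini-Hochberg adjustment over all tested genes and a threshold of 0.05. The SE is the absolute log2 fold change divided by the square root of F. The fit was tested on simulated data. Lengths and biotypes came from GENCODE M21 (GRCm38) and promoters from RefSeq, matched by symbol. The members and 20 gene lists were chosen with earlier results of these data known. Named are all 10 members, the tested paralogues and, from the other lists, up to 2 higher and 2 lower genes with the smallest adjusted p, the nearest profiles, and untested genes where a statement needs their counts; Atoh8, Tcf3, Tcf4, Tcf12, Id1, Id4 and Sin3b are named besides, chosen after their values were seen. Alternatives were other scalings and filters, DESeq2 1.42.0, limma-voom (limma 3.58.1), coding genes alone, a threshold of 0.01, each library left out, a replicate block, other pseudocounts and mean transcript lengths. Chi-square per degree of freedom between replicates ran from 6.79 to 13.9, more spread than repeat sequencing of the same library would leave. This check cannot tell replicate cultures from repeat libraries of the same RNA. Depth limits precision for genes with few counts. Some genes of the sympathoadrenal and proneural lists are not reported here.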

Additional observations from a re-analysis of the deposited data

How the results depend on the processing

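The fall of St18, Myt1l, Sox9, Insm1, Scrt1 and Sox11 and the rise of Myt1 and Scrt2 kept their direction and their call in all 15 alternative fits, and also at a threshold of 0.01. Sox4 passed in 7 of the 15 and was at -0.14 with library size only. Its call was lost without the filter (0.08, adjusted p = 0.280) and with the replicate block (adjusted p = 0.0675). Hes6 passed in none and was above 0 with upper-quartile factors (0.031) and without 0 h replicate 2; leaving out 1 library gave -0.165 to 0.018. Over all genes, 2409 were higher with library size only, against 3927 on the TMM scale, and 5849 were lower, against 3942. Leaving out 1 library gave 3458 to 3796 higher and 3683 to 3807 lower genes, 2 or 3 higher and 6 lower factors, and log2 ratio differences (96 h minus 0 h) of -3.38 to -3.24 for St18/Myt1, -1.43 to -1.29 for St18/Myt1l, 1.87 to 2.04 for Myt1/Myt1l, -1.54 to -1.15 for Scrt1/Scrt2, 0.50 to 0.56 for Sox4/Sox11 and -1.09 to -0.98 for Sox9/Sox4. In the order of levels, mean transcript lengths moved 4 factors at 96 h and 8 at 0 h, and leaving out a library moved 0 at 96 h and 2 to 3 at 0 h. With library size only, 14 of 130 tested genes of the lists turned from a positive to a negative log2 fold change, as the scaling shifts all genes down. Of these, 4 passed the threshold on 1 of the 2 scales, namely Sox4, Chgb (-0.20), Stmn1 (-0.24) and Zmym2 (-0.029). Replicate numbers did not pair the libraries: correlations of deviations between equal numbers were -0.0136, 0.0144 and -0.00496, and the replicate block gave 3854 higher and 3858 lower genes.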
